A study of Mus musculus with 2 samples.

Results

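The Id-low tip-like endothelial cells were 103 cells of the KO library of a mouse lung study, out of 2196 barcodes in that library and 5678 barcodes in both libraries. They made up 19.1% (15.8 to 22.6, exact Clopper-Pearson 95% interval) of the 540 endothelial cells of the KO library. None of the 1600 endothelial cells of the WT library met the same conditions, which allows a share of up to 0.230% by its exact interval (0.1875% by a limit of 3 cells). The study compared VE-cadherin+ CD45- lung cells of C57BL/6J mice 10 to 12 weeks of age, with 1 library labelled WT and 1 labelled KO, as a mouse model for type 2 of hereditary hemorrhagic telangiectasia (HHT2), a disease in which arteries join veins through fragile, enlarged vessels. VE-cadherin is an adhesion protein of endothelial junctions and CD45 a surface protein of leukocytes. The labels do not name the gene that was knocked out. The Cre line or promoter, any inducing agent, the time after deletion and the number of animals in each library are not stated in the labels.

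Tip cells are the endothelial cells at the front of a growing vessel, where they sense growth factors, digest and lay down basement membrane and lead the stalk cells behind them. BMP9 and BMP10 in the blood bind ALK1, the product of Acvrl1, with its partners endoglin and BMPR2, and the phosphorylated SMAD1 and SMAD5 then switch on the Id genes, Smad6 and Smad7 in resting endothelium. ALK1 signalling restrains sprouting, and loss of ACVRL1 is the known origin of this disease type.

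The cells were chosen by their own counts, so the genes of the rule describe the choice and are no finding. A cell needed at least 500 detected genes, at most 10% mitochondrial UMIs (unique molecular identifiers, the count of captured transcripts) and at least 3 of the 6 endothelial genes Pecam1, Cdh5, Cldn5, Egfl7, Ramp2 and Calcrl. It further needed at least 3 of the 6 genes Igfbp3, Peg3, Trp53i11, Tgfbi, F2r and Angpt2, here called the tip genes of the rule, and at most 1 UMI of Id1 and Id3 together. At most 2 of 6 aerocyte genes (Ednrb, Fibin, Tbx2, Chst1, Car4, Sirpa) and at most 1 of 4 lymphatic genes (Prox1, Mmrn1, Reln, Ccl21a) were allowed. Of 1326 KO barcodes passing the first conditions on genes and mitochondrial UMIs, 577 had 3 endothelial genes, 131 of these had 3 tip genes, 105 of these met the Id limit and 103 met the rest. In WT the same steps left 2745, 1881, 55 and 8 barcodes. Each of the 8 WT barcodes took at most 0.0797% of its UMIs from the 6 endothelial genes, against 0.373% or more in every Id-low tip-like cell. They were not counted as endothelial cells, which here needed at least 0.2% of UMIs from the 6 genes. Alveolar type 2 markers took 0.214% to 33.2% of their UMIs, against a median of 0.250% in the Id-low tip-like cells, and 6 of the 8 had Epcam or Cdh1.

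Among the 103 cells, 40 had exactly 3 tip genes, 38 had 4, 18 had 5 and 7 had all 6. Id1 and Id3 were at 0 UMIs in 86 cells and at 1 UMI in 17. Just outside the rule stood 29 KO cells with 2 tip genes and the other conditions met, whose median depth was 1643 UMIs against 4742.5 UMIs in the 40 cells with 3. Apln, which was not in the rule, had 1067 CPM in the cells with 3 tip genes and 268 CPM in those with 2, and Smad1 728 and 391 CPM. CPM are UMIs per 1000000 of the summed UMIs of a group of cells. On the Id side, 17 cells with at least 3 tip genes had more than 1 Id UMI, 1 of them with exactly 2. Of the KO cells with at least 3 tip genes and within the other limits, 85.8% (103 of 120, 78.3 to 91.5) met the Id limit, against 0 of 20 in WT (up to 16.8% by its interval).

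**Figure D1:**
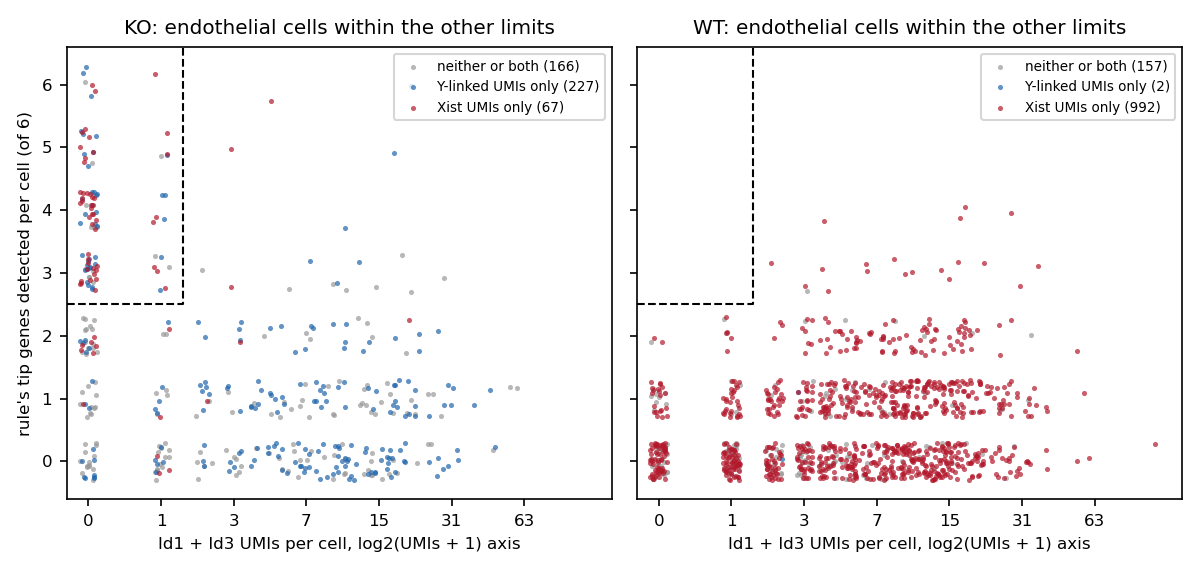
Each point is an endothelial cell within the aerocyte and lymphatic limits of the KO (left) or WT (right) library, placed by its Id1 and Id3 UMIs (log2 axis, jittered) and by how many of the 6 tip genes of the rule had a UMI (jittered), and coloured by its sex-linked transcripts. The dashed corner is the rule: it holds 103 KO cells and 0 WT cells, and 17 KO and 20 WT cells with 3 or more tip genes lie to its right.

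The libraries held 17864581 (KO) and 25667220 (WT) UMIs. The Id-low tip-like cells had 1082 to 12725 UMIs per cell (median 5638), the 437 other KO endothelial cells a median of 4974 and the WT endothelial cells 4224. The 12 barcodes found in both libraries included none of the 103 cells, and the doublet caller Scrublet marked none of them and 8 of the 437 others. Sex-linked transcripts set the libraries apart: of the WT endothelial cells 1418 had Xist UMIs alone and 2 had UMIs of 4 Y-linked genes alone, whereas KO held 77 and 280. With 1 library for each genotype there was no replicate check and no test, and intervals (95%, exact Poisson for levels, exact conditional binomial for ratios) cover counting error only. A gene is called higher or lower in what follows where the levels differed at least 1.5-fold with Poisson intervals that did not overlap. It also needed a mean of the 2 levels of at least 10 CPM and no place among the 24 genes of the rule. By this call 599 of 8389 genes were higher in the Id-low tip-like cells than in the other KO endothelial cells (7.14%) and 670 were lower (7.99%), with a median log2 ratio of -0.06 over all genes. These shares are a description of cells picked from the same counts.

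Both markers of the label that the rule did not use were high in these cells. Apln (ENSMUSG00000037010, chromosome X, 48025146 to 48034853, minus strand, GRCm38) encodes apelin, a secreted peptide of sprouting and hypoxic endothelium. It had 1420.4 CPM (1325 to 1521) in the Id-low tip-like cells, 201 CPM (183 to 221) in the other KO endothelial cells and 108 CPM (101 to 116) in WT endothelial cells, a ratio of 7.05 (6.28 to 7.94) over the other KO cells. Aerocytes, the large alveolar capillary cells, also use Apln, and the 72 KO endothelial cells with at least 3 of the 6 aerocyte genes had 623 CPM. Edn1, encoding the vasoconstrictor endothelin-1, had 1032 CPM (950.3 to 1118), against 309 CPM (286 to 333) in the other KO cells and 267 CPM (255 to 279) in WT. With each cell thinned to 1500 UMIs, Apln was detected in 67.6% of 102 Id-low tip-like cells, 14.0% of 378 other KO endothelial cells and 10.6% of 1477 WT endothelial cells, with 1, 59 and 123 shallower cells left out. Without thinning it was detected in 83.5% and 21.5% of the KO cells. In KO barcodes with at most 1 endothelial gene, which should lack Apln, the thinned share was 0.347%. Their median depth before thinning was 18364.5 UMIs. Of the 5 markers of the label, 27 cells had all, 42 had 4, 24 had 3 and 10 had 2. The 3 markers the rule used describe the choice: Peg3, an imprinted zinc finger gene, had 2589.8 CPM against 173 CPM, Igfbp3, a secreted binder of insulin-like growth factors, 1567 against 91.4 CPM, and Trp53i11 850.5 against 64.0 CPM. In WT endothelial cells these 3 genes had 61.9, 14.6 and 15.9 CPM.

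Endothelial identity was present in every cell, as the rule required. Pecam1, the adhesion molecule CD31, had 2353 CPM against 1441 CPM in the other KO cells, and Cdh5, which encodes VE-cadherin, 2504 against 1959 CPM. Of the 6, Calcrl, the receptor for adrenomedullin and CGRP, stood farthest apart, at 404 against 2758 CPM. Together the 6 genes were lower, at 11340.5 CPM against 15779 CPM in the other KO cells and 15946 CPM in WT. The lymphatic marker Pdpn, which the rule did not use, had 0 UMIs in the 103 cells, which allows up to 5.23 CPM. Yet the 7 lymphatic markers, Lyve1 and Flt4 among them, summed to 4721 CPM, against 2489 CPM in the other KO cells and 1297 CPM in WT. At least 2 of them were detected in 55.3% of the Id-low tip-like cells and 30.2% of the other KO cells. Lyve1 is given below. Flt4 was called higher over WT and over other KO cells within the aerocyte and lymphatic limits, but not over all other KO cells. Leukocyte markers summed to 68.0 CPM, with 10 of 16 at 0, Ptprc among them, and all 6 neural or neuroendocrine markers were at 0. Alveolar type 2 markers, which endothelial cells should lack, summed to 2733 CPM against 9617 CPM in the other KO cells and 10857 CPM in WT.

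The receptors of the ALK1 complex were lower in the Id-low tip-like cells over all KO cells, and none of them was called within cells with Xist UMIs alone. Acvrl1 (ENSMUSG00000000530, chromosome 15, 101128522 to 101145336, plus strand, GRCm38) had 399 CPM (349 to 454), against 1168 CPM (1124 to 1214) in the other KO endothelial cells and 1413 CPM (1385 to 1441) in WT, a ratio of 0.342 (0.297 to 0.391) within KO. Thinned to 1500 UMIs, 44.1% of the Id-low tip-like cells had an Acvrl1 UMI, 79.4% of the other KO endothelial cells and 1.91% of the barcodes with few endothelial genes. A transcript counted at its 3' end can lack a deleted exon, so this level does not decide whether the gene was deleted. Eng, the co-receptor endoglin, had 519 CPM against 1238 CPM, and Bmpr2, the type II receptor, 554 against 1729 CPM. Their WT levels were 1079.8 and 2046 CPM, so for both genes the other KO cells stood closer to WT than to the Id-low tip-like cells. Within Xist-only cells Acvrl1 had 394 against 486 CPM, Bmpr2 547 against 560.0 CPM and Eng 522 against 388 CPM, the last in the other direction. Over all KO cells 3 receptors of activin and TGF-beta were higher. Tgfbr3 (betaglycan) had 221 against 97.7 CPM, Tgfbr2 174 against 103 CPM and Acvr2a 76.7 against 42.3 CPM. In all, 3 of 8 measured receptors were higher and 3 lower, with a list median of 0.43 on the log2 scale.

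Among the SMADs, Smad1, which carries the BMP signal to the nucleus, was high and both inhibitory SMADs were low over all KO cells. Smad1 (ENSMUSG00000031681, chromosome 8, 79338395 to 79399518, minus strand, GRCm38) had 765 CPM (695 to 840.1) in the Id-low tip-like cells, 115 CPM (101 to 129.9) in the other KO cells and 57.5 CPM in WT, a ratio of 6.66 (5.70 to 7.80) within KO. Smad5 was higher by less, at 115 against 72.5 CPM, and Smad4, the common partner, differed by less than the call asks, at 115 and 109 CPM. Smad6 had 101 against 515 CPM and Smad7 71.5 against 574 CPM, while WT held 445 and 628 CPM. Both also count among the BMP-SMAD targets below, which are not independent of the rule's Id limit. In Xist-only cells Smad1 was again higher and no SMAD was lower (1 higher and 0 lower of 6 measured), with Smad6 in the other direction.

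The targets of BMP-SMAD signalling outside the rule were mostly low over all cells, but not within cells with Xist UMIs alone. Of the 9 measured, 8 were lower in the Id-low tip-like cells than in the other KO cells and none was higher, with a median log2 ratio of -2.35. Within the Xist-only cells the median was 0.11 over the 7 measured there, with Hey1 higher and Gja5 lower. The rule used Id1 and Id3, and genes known to be controlled with them are not independent of that choice. Id1 (chromosome 2, 152736251 to 152737410, GRCm38) had 19.2 CPM against 773 CPM and Id3 (chromosome 4, 136143497 to 136145755, GRCm38) 10.5 against 922 CPM. Id2, of the same family, had 13.9 against 84.2 CPM. Tmem100, a membrane protein known as a target of ALK1, kept 863 CPM of 2335 CPM. Hey1, a repressor shared by Notch and BMP signalling, had 117 against 273 CPM. The connexins of arteries were nearly absent, with 4 UMIs of Gja4 in the 103 cells (6.97 against 87.8 CPM) and none of Gja5, which puts Gja5 at least 4.22-fold lower than its 22.1 CPM in the other KO cells (floor of 3 counts over the group). In the other KO cells this list lay near WT, at a median log2 ratio of -0.05.

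Of the ligands and their modulators, Bmp4 and Tgfb2 were among the 15 genes with the highest ratios. Bmp4 had 329 CPM (284 to 379.8) in the Id-low tip-like cells and 39.2 CPM (31.4 to 48.3) in the other KO cells, and Tgfb2 227 (189 to 269) and 33.3 CPM (26.2 to 41.8). WT endothelial cells held 58.5 and 16.2 CPM. Inhbb, an activin subunit, had 59.3 against 23.4 CPM, whereas Ltbp4 and Ltbp1, which store latent TGF-beta in the matrix, were lower at 26.1 against 130.2 and 10.5 against 43.2 CPM. KO barcodes with at most 1 endothelial gene had 42.6 CPM of Bmp4 and 32.4 CPM of Tgfb2.

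Part of the tip cell repertoire was high, and part was not. Of the 21 measured genes of the tip cell and angiogenesis list, 12 were higher and 1 was lower, with a median log2 ratio of 0.82. Cxcr4, the chemokine receptor of sprouting cells, had 368 CPM (319.8 to 421) against 30.6 CPM (23.8 to 38.8) in the other KO cells and 52.9 CPM in WT. Pdgfb, by which tip cells draw in pericytes, had 655 against 234 CPM. Robo4, a guidance receptor of endothelium, had 488 against 162 CPM, and the vasodilator peptide gene Adm 120.3 against 17.1 CPM. Esm1 and Dll4, which define tip cells of the retina, were not called: Esm1 had 211 CPM against 151 CPM and 246 CPM in WT, and Dll4 256 against 195 and 224 CPM. Both were called higher over the 72 cells with aerocyte genes and within Xist-only cells, where Esm1 had 324 against 98.3 CPM and Dll4 293 against 118 CPM. Within Y-linked-only cells Esm1 was lower, at 103 against 183 CPM. Kdr, the main VEGF receptor, was lower at 350.3 against 745 CPM over all other KO cells. It stood at 2301 CPM in the 72 cells with aerocyte genes and at 321 CPM in the 357 other KO cells within the rule's aerocyte and lymphatic limits, on the other side of the Id-low tip-like cells. Pgf, a VEGF family ligand, had 90.6 against 3.15 CPM, yet 5 cells held 76.9% of its 52 UMIs. The angiopoietin receptor gene Tek was lower at 211 against 610.3 CPM, and Angpt2, the ligand that destabilises vessels and a gene of the rule, had 339.9 against 29.7 CPM.

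**Figure D2:**
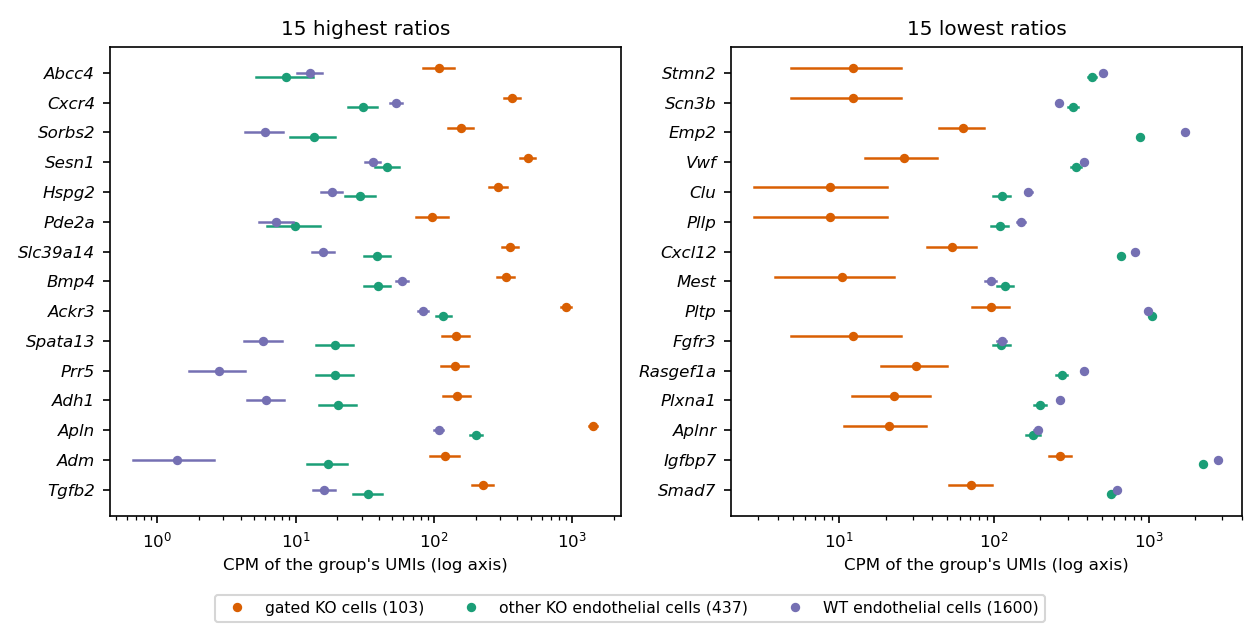
Levels in CPM (log axis) of the 15 genes with the highest and the 15 with the lowest ratio of Id-low tip-like cells over other KO endothelial cells, among genes outside the rule with a mean of at least 50 CPM, with exact Poisson 95% intervals. In each of the 30 genes the interval of the Id-low tip-like cells (orange) overlaps neither the other KO cells (green) nor the WT endothelial cells (purple).

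Most basement membrane genes were higher over all KO cells. Of 12 measured, 9 were higher and none was lower, at a median log2 ratio of 1.07. Within Xist-only cells the median was 0.26, with 4 higher and 1 lower of 15 measured. Within cells with Y-linked UMIs alone it was 1.17, with 8 higher and 0 lower of 11. Col4a1, a chain of the collagen IV network, had 7534 CPM (7311 to 7762) against 2122 CPM (2062 to 2183) in the other KO cells and 1355 CPM (1328 to 1382) in WT, and its partner Col4a2 2956 against 1136 CPM. Hspg2, encoding the proteoglycan perlecan, had 291 against 29.3 CPM, a ratio of 9.94 (7.42 to 13.5). The laminin chain gene Lama4 had 263 against 41.4 CPM, Sparc, a collagen-binding matrix protein, 3691 against 1727 CPM, and Nid1, which joins laminin to collagen IV, 551 against 267 CPM. The interstitial matrix list went the other way as a whole, with 4 genes higher and 10 lower of 19 and a median log2 ratio of -1.11, although this median turned to 0.0070 with each cell thinned to 1500 UMIs. Its lower members included Eln, elastin, at 186 against 572 CPM, Mgp, an inhibitor of BMP ligands and of calcification, at 45.3 against 543 CPM (5392 CPM in the 29 cells just outside the rule), and Col1a1 at 19.2 against 70.7 CPM. KO barcodes with few endothelial genes held 1777, 1958 and 1118 CPM of these 3 genes, and the part of free RNA in them was not tested. The higher members were Ctgf (1223 against 191 CPM), Cyr61 (333 against 54.1 CPM), Fbln5 and Bgn. Ctgf and Cyr61 are secreted matricellular proteins and known targets of YAP.

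Tagln, a smooth muscle and cytoskeletal gene, had 148 CPM against 14.4 CPM. The whole smooth muscle marker list of 6 genes summed to 253 CPM in the Id-low tip-like cells, 73.0 CPM in the other KO cells and 86.2 CPM in WT, with none of the 6 at 0 in any of them. Acta2, the defining contractile gene, had 48.8 CPM and 36.0 CPM and was not called. The part of smooth muscle RNA in the Tagln level was not tested.

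**Figure D3:**
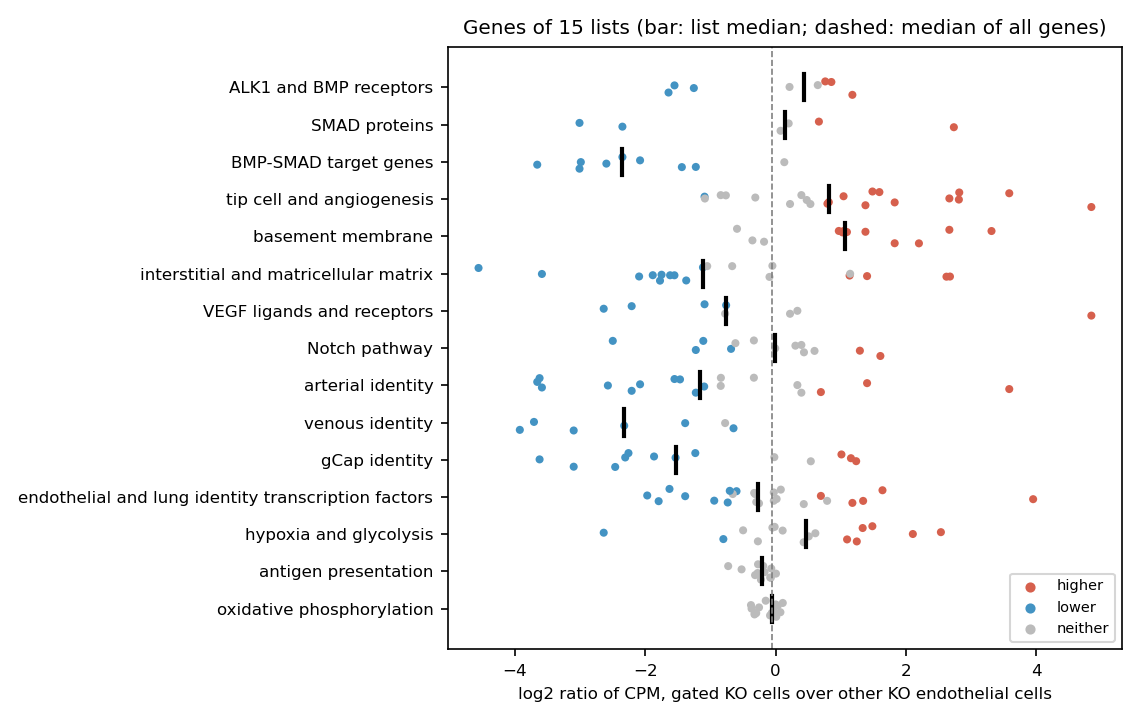
Each point is a measured gene of 15 gene lists, placed by the log2 ratio of its CPM in Id-low tip-like cells over other KO endothelial cells (red higher, blue lower, grey neither), with the list median as a black bar and the median of all genes (-0.06) as a dashed line; genes without UMIs in the Id-low tip-like cells are placed at the floor of 3 counts. The BMP-SMAD target, venous, general capillary and arterial medians lie at -2.35, -2.32, -1.53 and -1.16, and the basement membrane median at 1.07.

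Genes of veins and arteries were mostly lower over all other KO endothelial cells, but not over the 72 cells with aerocyte genes. Venous genes were lower in 6 of 7 measured, at a median log2 ratio of -2.32. Vwf, the clotting factor carrier of larger vessels, had 26.1 against 341 CPM and the venous transporter gene Slc6a2 5.23 against 79.3 CPM. Arterial genes were lower in 10 and higher in 3 of 18, at -1.16. Efnb2, the arterial ephrin, had 329 against 909 CPM and the chemokine gene Cxcl12 54.0 (36.7 to 76.7) against 664 CPM (630.5 to 699). The arterial factor Sox17 was on the higher side, at 422 against 260.3 CPM. Over the cells with aerocyte genes the arterial median was 0.86 (7 higher and 4 lower of 16). The venous median there was 0.37 (1 higher and 1 lower of 6). Among all 8274 genes of that comparison 743 were higher and 710 lower, and 6 venous genes are too few to be set apart from that. Within Xist-only cells the arterial median was -0.31 (5 higher and 6 lower of 17) and the venous median -1.54 (0 higher and 3 lower of 6).

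General capillary (gCap) genes, those of the stem-like capillary cell of the alveolus, divided. Of 13 measured, 8 were lower and 3 higher, at a median log2 ratio of -1.53 over all cells and of 1.09, the other direction, within cells with Xist UMIs alone. Aplnr, the apelin receptor, had 20.9 CPM (10.8 to 36.5) against 179 CPM (162 to 197), the reverse of its ligand Apln. Plvap, the diaphragm protein of fenestrae, had 204 against 1008 CPM, and Sema3c 242 against 1332 CPM. Gpihbp1, which holds lipoprotein lipase at the capillary wall, was higher at 2963 (2824 to 3107) against 1329 CPM (1281 to 1378), Kit 908 against 450.4 CPM, and Ptprb, the phosphatase of Tie2 and VE-cadherin, was level at 2439.9 and 2471 CPM. Lyve1, a hyaluronan receptor known from lymphatic vessels, had 4531 CPM against 1674 CPM in the other KO cells and 1086 CPM in WT. The rule itself limited the lymphatic genes Prox1, Mmrn1, Reln and Ccl21a, so their low levels in these cells are no finding.

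Against only the 357 other KO endothelial cells that met the aerocyte and lymphatic limits, so that the tip and Id conditions alone separated the groups, 584 genes were higher (6.98%) and 621 lower (7.42%). Of the 15 leading genes in each direction, 12 of the higher and 10 of the lower were also among the 15 leading genes there. Emp2 (62.7 against 881 CPM) and Igfbp7 (268 against 2261 CPM) had 3395 and 8203 CPM in the 72 cells with aerocyte genes. In the 357 cells they stood at 221 and 681 CPM. Against WT endothelial cells, 775 genes were higher (9.11%) and 981 lower (11.5%).

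Transcription factors of endothelium shifted in both directions, with 5 higher and 8 lower of 24 and a median log2 ratio of -0.27. Klf2, the flow-induced factor of quiescent endothelium, had 709 CPM (642 to 782) against 2190.0 CPM (2129 to 2252), and its relative Klf4 288 against 996 CPM. Thbd, the anticoagulant receptor thrombomodulin that these factors are known to induce, had 188 against 1103 CPM. Foxf1, the forkhead factor needed for lung vessels, had 608 against 1167 CPM, and Tbx3 115 against 450.0 CPM. Within Xist-only cells the list median was 0.29, and Foxf1 was higher there at 731 against 452 CPM, as was Epas1, a hypoxia-inducible factor, at 1233 against 703 CPM. Klf2 and Klf4 were not called in that comparison, while Thbd was lower. Over all KO cells the ETS factor Fli1 was higher at 432 against 170.3 CPM, while Erg, of the same family, was not called at 155 and 115 CPM.

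Other secreted or signalling genes led the ratios. Ackr3, a scavenging receptor for Cxcl12 and adrenomedullin, had 901 CPM (825 to 982) against 117 CPM (103 to 132), so that both Cxcl12 receptors, Cxcr4 and Ackr3, were high where Cxcl12 itself was low. Sesn1, a stress-induced regulator of mTORC1 and a p53 target, had 476 (421 to 536) against 45.9 CPM (37.5 to 55.8). The p53 target list had 1 gene higher and 1 lower of 10, near the shares over all genes (7.14% and 7.99%). Slc39a14, a zinc and manganese importer, had 356 against 38.7 CPM, Abcc4, an exporter of cyclic nucleotides, 108 against 8.56 CPM, and Pde2a, which degrades cyclic nucleotides, 97.6 against 9.91 CPM. Sorbs2, Spata13, Prr5 and Adh1 complete the 15, between 141 and 157 CPM against 13.5 to 20.3 CPM. On the lower side Stmn2, a tubulin-binding protein, had 12.2 CPM against 430.2 CPM and Scn3b, a sodium channel subunit, 12.2 against 326 CPM, both with 7 UMIs in all 103 cells. Clu, Pllp, Mest, Fgfr3, Rasgef1a and Plxna1 lay between 8.71 and 31.4 CPM against 109 to 275 CPM, and Pltp, a phospholipid carrier, at 95.9 against 1060.3 CPM.

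Notch genes gave no single direction, with 2 higher and 4 lower of 13. Nrarp, a feedback target of Notch, had 279 against 91.4 CPM, whereas Notch1 had 268 against 431 CPM and Hes1 159 against 342 CPM. The hypoxia and glycolysis list had 6 higher and 2 lower of 16, at 0.47, led by Ndrg1 (146 against 25.2 CPM) and Pfkfb3 (206 against 47.7 CPM), the glycolytic activator of sprouting cells. Vegfa, a hypoxia target in the same list, was lower at 40.1 against 249 CPM. Within Xist-only cells this list turned to a median of -0.58, with 1 gene higher (Pfkfb3) and 3 lower (Gpi1, Gapdh and Ldha). Oxidative phosphorylation (18 measured) and antigen presentation (12 measured) held no gene called in either direction over all other KO cells, with medians of -0.05 and -0.21. The 18 oxidative phosphorylation genes held 7 lower ones within Xist-only cells (median -0.57), where 4.3% of all genes were lower. Against WT, 10 of the 12 antigen presentation genes were lower (median -0.94), where 11.5% of all genes were lower. The other KO cells had 6 of the 12 lower against WT. At least 2 of 8 cycle genes were detected in 2 of the 103 cells (1.94%), 1 of the 437 others (0.229%) and 0 of 1600 WT cells. Of 17 dissociation and heat stress genes 5 were lower and none was higher over all other KO cells, with 1 UMI of Hspa1a in all 103 cells against 85.1 CPM in the other KO cells, a ratio of 0.0205 (0.000516 to 0.115). In Y-linked-only cells 3 of 17 were higher (Junb, Dusp1 and Hspa8) and 5 lower. Over the 72 cells with aerocyte genes 3 were higher (Egr1, Btg2 and Dusp1) and 4 lower.

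The sex-linked transcripts of the cells moved with the gate. Of the 77 KO endothelial cells with Xist UMIs alone, 49 were Id-low tip-like (63.6%, 51.9 to 74.3), against 40 of the 280 with Y-linked UMIs alone (14.3%, 10.4 to 18.9). The Id limit was met by 87.0% and 26.4% of these cells, and 3 tip genes by 71.4% and 16.4%. In WT endothelial cells the Id limit was met by 18.5% and 3 tip genes by 2.0%. Which animals the 2 kinds of KO cell came from is not stated in the labels, so sex and animal cannot be told apart.

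The Id-low tip-like cells of each kind were set side by side. Apln stood at 1487 CPM (1349 to 1635) in the 49 cells with Xist and 1198 CPM (1055 to 1354) in the 40 with Y-linked UMIs, and Acvrl1 at 394 and 416 CPM. Smad1 had 885 and 674 CPM, Smad7 76.6 and 74.9 CPM, Cxcr4 394 and 327 CPM and Col4a1 6982 and 7934 CPM. Between the kinds, 76 of 7969 genes were higher with Xist (0.954%) and 89 lower (1.12%), sex-linked genes left out. Edn1 was lower with Xist, at 707 (613 to 811) against 1352 CPM (1201 to 1517), and Klf2 was higher, at 1079.5 (963 to 1207) against 360.2 CPM (284 to 450.2). Esm1 had 324 against 103 CPM, and Cxcl12 17.4 against 122 CPM. Pgf had 122 against 18.7 CPM, resting on few cells as above.

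Within each kind of cell the comparison was made again. Among cells with Y-linked UMIs, the 40 Id-low tip-like cells against the 240 others gave 541 genes higher (6.5%) and 496 lower (5.96%). Acvrl1 had 416 against 1274 CPM there, Smad6 117 against 557 CPM and Apln 1198 against 174 CPM, and the BMP-SMAD target median was -2.34. Among cells with Xist there were 28 others, of which 16 met the Id limit with under 3 tip genes, 12 of them within the aerocyte and lymphatic limits, and 279 genes were higher (3.37%) and 356 lower (4.3%). The 28 others were themselves low in BMP signalling genes: Smad6 had 63.9 CPM, Acvrl1 486 CPM, Bmpr2 560.0 CPM and Eng 388 CPM, near the 80.1, 394, 547 and 522 CPM of the 49. They include 8 cells with aerocyte genes and 2 with lymphatic genes, and 1 cell held 28122 of their 203555 UMIs. Ribosomal protein genes took 10.7% of their UMIs against 6.17% in the 49, and their part in these values was not tested. The target median there was 0.11. Aplnr (14.7 CPM), Tek (93.3 CPM) and Hey1 (54.0 CPM) were below the Id-low tip-like cells with Xist (31.3, 247 and 160.2 CPM), the reverse of their order over all cells. Tek and Hey1 were called there, and Aplnr was not. Efnb2 (285 against 331 CPM), Notch1 (192 against 299 CPM), Hes1 (182 against 226 CPM) and Tmem100 (688 against 742 CPM) were reversed in the same way, though none of these 4 was called. Apln (698 CPM), Smad1 (289.8 CPM), Cxcr4 (78.6 CPM) and Col4a1 (3802 CPM) were below the Id-low tip-like cells with Xist and above the other cells with Y-linked UMIs.

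**Figure D4:**
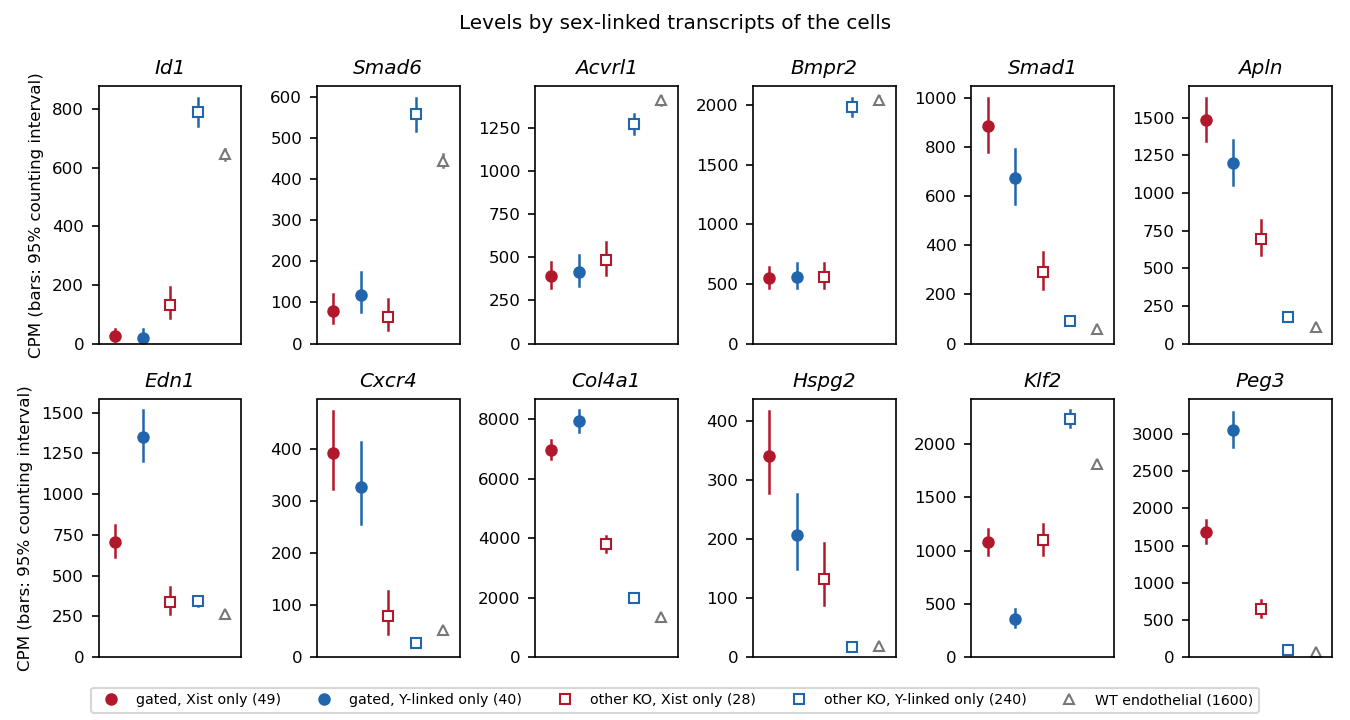
CPM of 12 genes with exact Poisson 95% intervals in Id-low tip-like cells (filled circles) and other KO endothelial cells (open squares), each by Xist-only (red) and Y-linked-only (blue) transcripts, and in WT endothelial cells (grey triangles). Id1 and Peg3 belong to the rule. For Acvrl1, Bmpr2 and Smad6 the other Xist-only cells lie with the Id-low tip-like cells, and for Klf2 the Xist-only groups lie together between the others.

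Clustering of the 540 KO endothelial cells without the rule's and the sex-linked genes, at the main setting of Leiden resolution 1, divided the 103 cells. Of them 56 lay in 1 cluster and 45 in another (2 cells lay elsewhere), both with cells of each sex type (26 Xist-only and 23 Y-linked-only, 22 and 16). At resolution 0.5, 102 of the 103 cells lay in 1 cluster of 145, with 21 of the 29 cells just outside the rule. At resolution 2 the main clusters held 41, 36 and 24 of the 103. The 2 sets at resolution 1 differed in measures of the library: Gm42418, a locus that overlaps ribosomal RNA, took 7.59% of UMIs in the 56 cells and 1.58% in the 45, ribosomal protein genes 4.49% and 9.67%, and the median depth was 4305 and 6571 UMIs. Apln stood at 1468 and 1420 CPM in these sets, Acvrl1 at 437 and 357, Smad7 at 64.0 and 80.7 and Col4a1 at 8665 and 6651, so each gene kept its side of the 399 other KO cells outside both clusters (158, 1256, 612 and 1987 CPM). Klf2 at 275 and 1100.1 CPM and Pgf at 18.8 and 158 CPM divided between the sets, and the part of library quality in those 2 genes was not tested.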

How the data were processed

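Single-cell RNA-seq with the 10x Genomics single cell 3' v3 chemistry was made from VE-cadherin+ CD45- lung cells, 1 library labelled WT and 1 labelled KO. The authors deposited, for 27998 genes, unnormalized UMI counts of every barcode. The submitters' processing notes name Cell Ranger 3.0.1 and mm10. Of these genes, 27645 were matched by identifier to GENCODE M21 for coordinates. Free RNA and a barcode filter can alter such counts, and no correction for free RNA was applied here.

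Cells were picked by the rule given in the report. UMIs were summed over each group of cells and divided by the group's total (CPM). Levels have exact Poisson intervals and ratios have exact conditional binomial ones, all at 95% (scipy 1.17.1, numpy 2.4.6). Where a group had no UMI, 3 counts were used as its limit. The calculation was tested on simulated data. With 1 library per group no model was fitted and no p-value was computed. The members, the 33 gene lists (457 of 461 genes in the files) and the marker lists were chosen with earlier results of these data known, so their counts are no independent support. Genes named are the 15 highest and 15 lowest ratios over the other KO endothelial cells at a mean of at least 50 CPM, the rule's genes, the 5 label markers, Acvrl1 and 2 to 4 genes with the largest ratios of each list at 10 CPM. Others named (among them Esm1, Dll4, Lyve1, Stab2 and Tagln's companion Acta2) were chosen after their values were seen. Sex-linked, predicted, haemoglobin, ribosomal protein and mitochondrial genes, markers of non-endothelial types and genes higher in barcodes with few endothelial genes were left out of the ranks. Cells were typed as Xist-only or Y-only from Xist and 4 Y-linked genes. Scrublet (scanpy 1.11.5) marked 12 KO (0.905%) and 37 WT (1.35%) doublets, which were kept in the main values and left out as an alternative. Clusters came from 2000 variable genes with leidenalg 0.10.2. Alternatives changed the cell filters, the rule's limits, the comparison cells, the weighting, the depth and the clustering resolution.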

Additional observations from a re-analysis of the deposited data

Results flagged for a closer look

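One gene group had opposite directions in cells with Xist UMIs alone and in cells with Y-linked UMIs alone. The angiopoietin and Tie list was compared between Id-low tip-like and other KO endothelial cells of each kind. Its median log2 ratio was 0.71 with Xist (4 genes measured) and -1.01 with Y-linked UMIs (3 genes measured). The difference was not tested, since the cells come from 1 library, and sex and animal cannot be told apart. Within Xist-only cells it rests on 28 other cells, in which Tek stood at 93.3 CPM and Tie1 at 196.5 CPM, against 643 and 405 CPM in the 240 other cells with Y-linked UMIs.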

How the results depend on the processing

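Each result was recomputed with 1 choice changed, and the cause of each change was not tested. Reversed is written of a value at least 1.5-fold from level, with an interval clear of level, that changed sign. The share of KO endothelial cells in the rule, 19.1%, was 24.4% with 2 tip genes asked, 11.7% with 4 and 12.4% with cells thinned to 1500 UMIs. The genes called higher and lower, 599 and 670, were 261 and 206 after thinning (59 cells left in the rule), 279 and 356 in Xist-only cells, and the lower 407 at a mean of 50 CPM, where fewer genes were tested. The tip cell median of 0.82 was 1.18 with no minimum endothelial share, 1.16 against cells within the limits, 1.28 against WT and 0.63 in Xist-only cells. The basement membrane median of 1.07 was 0.91 at 1000 genes and 5% mitochondrial UMIs and 0.26 in Xist-only cells. It was 1.51 within the limits and 1.71 against WT. Where a gene needed 3 UMIs over both groups in place of a mean of 10 CPM, a looser condition, it was 0.59. In Xist-only cells the medians of BMP-SMAD targets (0.11), angiopoietin and Tie (0.71), gCap (1.09), SoxF and flow (0.015) and semaphorin genes (0.28) reversed, and smaller medians changed sign (hypoxia -0.58, transcription factors 0.29, vasoactive 0.88, interferon 0.57). The log2 ratios there of Aplnr (1.09), Eng (0.43), Smad6 (0.33), Tek (1.41), Tie1 (0.56), Hey1 (1.57), Sema3c (0.49), Dcn (1.504), Mecom (-0.35), S100a10 (-0.15), Mcm6 (-0.081) and Pkm (-0.39) reversed. Against cells within the limits the VEGF list (0.037) and Kdr (0.13) reversed, with 2 tip genes Mgp (1.14), and with up to 3 Id UMIs Dcn (1.87). After thinning, interstitial matrix (0.0070), leukocyte adhesion (0.024), Lrg1 (0.59), Dcn (0.23), Irs1 (0.40), Fn1 (0.0070) and Ebf1 (0.81) reversed. Smaller medians also changed sign in Y-only cells (lipid, -0.93) and against WT (coagulation, 0.89). Chosen after seeing the data, Gm42418 left out of the totals and other KO cells with over 1 Id UMI reversed none of these values. Depth limits genes under about 10 CPM, since 3 counts over the 103 cells are 5.23 CPM. No paired analysis was possible because each group has 1 library.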

Other observations

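Further genes of lipid handling, clotting, guidance and imprinting went in both directions over all KO endothelial cells. Of 12 lipid genes 3 were higher and 4 lower. Cd36, the fatty acid translocase of capillaries, had 563 CPM against 1782 CPM in the other KO endothelial cells, and Fabp4 3 UMIs in all 103 cells, whereas Abca1, the cholesterol exporter, had 211 against 64.0 CPM. Of 9 clotting genes Plat, encoding tissue plasminogen activator, was higher at 258 against 137 CPM, as was S100a10, which binds plasminogen with annexin A2, while Vwf, Thbd and Tfpi were lower. Of 19 semaphorin, plexin and guidance genes 5 were higher and 9 lower. Sema5a had 90.6 against 24.3 CPM and Plxnd1, the receptor of Sema3e, 223 against 130.2 CPM, while Nrp1, a co-receptor of VEGF and semaphorins, had 338 against 1561 CPM. Peg3 belongs to the rule, and its imprinted neighbour Usp29 had 36.6 CPM (22.7 to 55.9) against 2.25 CPM (0.731 to 5.26), from 21 UMIs in 11 cells. Of the 11 imprinted genes measured, Usp29 and Cdkn1c were higher and Meg3, Mest, Kcnq1ot1 and Dcn lower, with Dcn in the other direction after thinning, in Xist-only cells and with up to 3 Id UMIs allowed.

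Stab2, a scavenger receptor of sinusoidal endothelium, had 19 UMIs (33.1 CPM, 19.9 to 51.7) in 7 of the 103 cells and none in the 357 other KO endothelial cells within the limits or in the 1600 WT endothelial cells. In the 8 KO cells with lymphatic genes it stood at 266 CPM, and within Xist-only cells at 31.3 CPM against 73.7 CPM in the 28 others. It was picked after its value was seen. Clec4g and Gata4, of the same marker list, had no UMIs in the 103 cells. Spry1, a feedback inhibitor of growth factor signalling, had 587 CPM (526 to 654) against 91.0 CPM (78.9 to 104), and was the only gene of the peribronchial list that was higher, with Plvap, Ebf1 and Mmp14 lower of 6 measured. Among junction genes Jam3 had 103 against 16.2 CPM and Cgnl1 109.8 against 32.9 CPM, while Jup, plakoglobin, had 186 against 504 CPM. Apod, which encodes a lipid carrier, had 125 CPM (87.8 to 173.6) in Id-low tip-like cells with Xist and 1 UMI in those with Y-linked transcripts.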
